A study of Mus musculus with 56 samples.

Results

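The data described here are the response to TGFβ of mouse breast cancer cells with the β-catenin genotype dm/fl, in which 1 allele of the gene for β-catenin is the mutant allele named dm and the other is floxed. The members are the 4 libraries of dm/fl cells in the TGFβ experiment, chosen by their labels from the 56 libraries of the series: 2 of cells kept for 4 days with TGFβ at 2 ng/ml and 2 of untreated cells of the same experiment. The sources used here do not state which changes the dm allele carries. The series holds 7 β-catenin genotypes (fl/fl, D164A/fl, D164A/-, ΔC/fl, ΔC/-, dm/fl and dm/-), each untreated and treated in a TGFβ experiment of 4 days and in a Wnt3a experiment of 3 days with 100 ng/ml Wnt3a, with 2 libraries a condition. All lines came from mammary tumors of MMTV-PyMT mice on the FVB/N background, in which the mammary tumor virus promoter drives the polyoma middle T oncogene, so that every group compared, the untreated cells included, carried this transgene. The lines marked with a minus sign were made by Cre recombination of the floxed allele in culture and sorting of the cells that had received the Cre virus, and dm/- cells thus carry the dm allele alone. The labels do not say from which line or culture each library came, so genotype and cell line cannot be told apart. The p-values measure the spread between the 2 libraries of a condition, taken over all 28 conditions of the series and not in dm/fl cells alone. This spread may be technical.

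Poly(A) RNA was sequenced, and the values are given as CPM (counts per 1e6 reads): reads per gene, divided by a library size that had been scaled between libraries, with no correction for gene length. The 4 dm/fl libraries held 28665649 to 31846078 reads in genes, 1 read was worth 0.0311 to 0.0329 CPM, and the replicates correlated at 0.990 in both groups (Pearson, log2(CPM + 1) over genes). Of the 10 markers of mammary epithelial tumor cells, 7 reached 10 CPM in untreated and in treated dm/fl cells, among them Epcam, Krt8 and Krt18, while Krt19 was at or under 3 reads in all 4 libraries, Cldn7 was at 0.621 and 1.12 CPM untreated and 0.530 and 0.855 CPM with TGFβ, and Krt5 at 1.55 and 3.12 CPM untreated and 0.249 and 0.329 CPM with TGFβ. The leukocyte markers Ptprc, Adgre1 and Cd3e, the fibroblast markers Thy1, Lum and Dpt, the endothelial markers Pecam1, Kdr, Tek, Vwf and Emcn and the adipocyte markers Adipoq, Plin1, Lep and Cidec were at or under 3 reads in each library. Other members of these lists were expressed, Csf1r at 336 and 430.5 CPM untreated and 447 and 425 CPM with TGFβ, Pdgfra at 302 and 163 CPM and 86.9 and 54.1 CPM, Pdgfrb at 227 and 145 CPM and 28.2 and 26.3 CPM, Fabp4 in untreated and Cdh5 in treated cells. Most of the epithelial markers were thus present, as the label of breast cancer cells implies, with Krt19 at or under 3 reads.

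TGFβ is a secreted cytokine that binds a pair of serine/threonine kinase receptors, which phosphorylate the proteins SMAD2 and SMAD3 so that these enter the nucleus with SMAD4 and change transcription. In epithelial cells it is best known for inducing an epithelial-mesenchymal transition (EMT), in which cells lose polarity and cell-cell junctions and gain the shape, matrix and motility of mesenchymal cells. β-catenin serves in this setting both at the adherens junction and, with TCF/LEF factors, as the transcriptional effector of canonical Wnt signals.

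Promoters are shown here for 4 interferon-stimulated genes and 2 epithelial polarity genes that fell with TGFβ, chosen because each holds a known short motif just before its start. Other members of both lists do not hold it, as the shares below show. The sequences are RefSeq reference sequence (GRCm38.p6) of the 250 bases before the annotated start, read 5′ to 3′ on the strand of the gene, with the motif in capitals. In the promoters of Ifit3 (chr19:34583279-34583528, plus strand), Ifit1 (chr19:34640639-34640888, plus strand), Isg15 (chr4:156200819-156201068, minus strand) and Rsad2 (chr12:26456453-26456702, minus strand), the capitals mark the interferon-stimulated response element (ISRE), searched as 2 copies of GAAA with any 2 bases between them, on both strands. In Isg15 3 overlapping matches form 1 run.
Ifit3: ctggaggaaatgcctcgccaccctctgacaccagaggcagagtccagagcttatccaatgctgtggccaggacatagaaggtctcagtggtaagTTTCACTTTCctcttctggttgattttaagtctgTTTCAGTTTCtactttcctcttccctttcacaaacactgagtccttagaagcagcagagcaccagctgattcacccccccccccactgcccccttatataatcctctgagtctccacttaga
Ifit1: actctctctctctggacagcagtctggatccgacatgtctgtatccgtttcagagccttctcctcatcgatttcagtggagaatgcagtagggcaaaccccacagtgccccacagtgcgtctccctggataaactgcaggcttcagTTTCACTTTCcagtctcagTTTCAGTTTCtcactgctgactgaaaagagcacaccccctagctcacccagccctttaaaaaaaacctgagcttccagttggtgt
Isg15: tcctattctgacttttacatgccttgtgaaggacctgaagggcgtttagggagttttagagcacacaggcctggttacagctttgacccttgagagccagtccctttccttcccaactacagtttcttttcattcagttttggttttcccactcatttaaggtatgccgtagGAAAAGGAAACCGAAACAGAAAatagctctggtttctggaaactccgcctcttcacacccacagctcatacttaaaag
Rsad2: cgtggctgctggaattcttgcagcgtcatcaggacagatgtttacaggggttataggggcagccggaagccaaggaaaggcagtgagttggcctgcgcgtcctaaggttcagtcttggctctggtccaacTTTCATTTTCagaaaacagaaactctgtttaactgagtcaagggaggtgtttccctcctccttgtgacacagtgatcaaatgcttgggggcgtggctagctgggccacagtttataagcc
In the promoters of Crb3 (chr17:57061951-57062200, plus strand) and Rab25 (chr3:88548280-88548529, minus strand), the capitals mark the E-box CAGGTG, the sequence that the EMT repressors of the SNAI and ZEB families are known to bind, on either strand.
Crb3: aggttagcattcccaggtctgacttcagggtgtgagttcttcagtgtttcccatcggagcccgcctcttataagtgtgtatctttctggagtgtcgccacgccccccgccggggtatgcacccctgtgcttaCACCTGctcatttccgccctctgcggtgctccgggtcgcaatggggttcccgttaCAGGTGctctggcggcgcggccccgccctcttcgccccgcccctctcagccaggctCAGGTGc
Rab25: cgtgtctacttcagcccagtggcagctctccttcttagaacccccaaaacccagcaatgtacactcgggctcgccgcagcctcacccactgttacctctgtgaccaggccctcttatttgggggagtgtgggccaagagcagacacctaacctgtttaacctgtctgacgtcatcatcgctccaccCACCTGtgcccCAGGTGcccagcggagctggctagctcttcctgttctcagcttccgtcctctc
The ISRE letters stood in 12 of the 22 interferon-stimulated genes with a promoter in the table (54.5%), in 52 of 700 genes lower with TGFβ (7.43%) and in 347 of all 10829 tested genes with a promoter (3.20%). The E-box stood in 16 of the 24 epithelial junction and identity genes (66.7%), in 2019 of all 10829 (18.6%), in 94 of 351 genes higher (26.8%) and in 152 of 700 lower with TGFβ (21.7%). Other searches gave the AP-1 site TGANTCA in 47 of 351 genes higher with TGFβ (13.4%), 64 of 700 lower (9.14%) and 679 of all genes (6.27%), and the SMAD motif CAGACA in 76 (21.7%), 134 (19.1%) and 1755 (16.2%) of the same sets. These matches are descriptions of letters in a window, and binding at them was not measured.

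To find which genes changed, treated and untreated dm/fl cells were compared by limma on log2(CPM + 1) in 1 fit over all 56 libraries. A gene was called at a Benjamini-Hochberg adjusted p of at most 0.05 and a log2 change of at least 1 in either direction, where the log2 change is the mean log2(CPM + 1) of treated minus untreated libraries, given ± its standard error with 2 libraries per group. This standard error rests on the spread of duplicates over all conditions of the fit, so it is not that of the dm/fl duplicates alone. In dm/fl cells 946 genes fell and 474 rose, together 10.3% of the 13754 genes tested (6.88% fell and 3.45% rose). Counts of called members in the gene lists below stand against these shares. The median log2 change was -1.84 among the genes that fell and 1.72 among those that rose, against -0.02 over all genes. Decreases past a log2 change of 2 were found for 408 genes and past 4 for 49, and increases of these sizes for 177 and 16 genes. With each of the 4 libraries left out in turn, 901 to 1198 genes were called, the fewest without untreated replicate 1. Fewer cells of a kind and less RNA per cell cannot be told apart in such bulk samples.

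**Figure D1:**
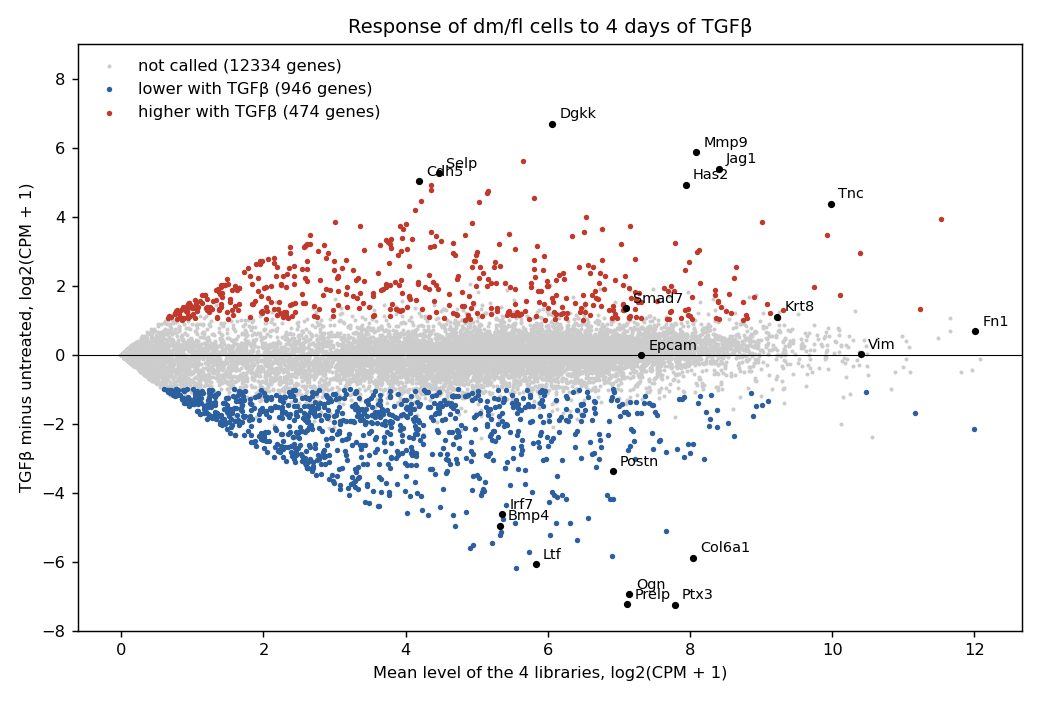
Response of dm/fl cells to 4 days of TGFβ. Each point is a gene, with the mean level of the 4 libraries on the horizontal axis (log2(CPM + 1)) and the log2 change on the vertical axis. The 474 genes higher with TGFβ are red, the 946 lower are blue, and black points mark genes named in the text: Dgkk, Mmp9 and Jag1 lie at the top, Ptx3, Prelp and Ogn at the bottom, and Vim and Epcam near 0.

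Genes of several functions were among the largest increases. Mmp9 (chr2:164940326-164955850), a secreted gelatinase, was at 5.90 and 10.96 CPM untreated and at 588 and 476 CPM with TGFβ, a log2 change of 5.87 ± 0.86 (limma, adjusted p = 4.76e-06). Jag1 (chr2:137081451-137116520), a membrane-bound ligand of Notch receptors, went from 14.5 and 15.2 CPM to 637 and 685 CPM, 44.5-fold on the mean CPM (log2 change 5.38 ± 0.55, adjusted p = 5.63e-09). Has2, a synthase of hyaluronan, was at 18.6 and 11.5 CPM untreated and 484 and 462 CPM treated (log2 change 4.92 ± 0.80, adjusted p = 2.29e-05). In all 3 genes the groups lay far apart, and in Jag1 the duplicates of both groups lay close together. Over all genes tested, the values of treated and untreated libraries did not overlap in 65.1%.

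Dgkk, a diacylglycerol kinase, had the largest fitted increase, from 0.155 and 0.351 CPM to 159 and 103 CPM (log2 change 6.69 ± 0.57, adjusted p = 1.56e-10). St8sia2, which builds polysialic acid on cell surface proteins, went from 1.09 and 0.924 CPM to 109.7 and 85.8 CPM, and Tnc, encoding the matrix glycoprotein tenascin C, from 117 and 53.1 CPM to 2948 and 928 CPM. The treated Tnc libraries differed by more than 3-fold and still did not reach down to the untreated ones. Itgb3, the integrin β3 subunit, went from 2.05 and 1.18 CPM to 73.9 and 62.3 CPM (log2 change 4.74 ± 0.45, adjusted p = 1.51e-09), and the semaphorin receptor gene Plxna4 from 2.80 and 4.56 CPM to 109 and 103 CPM (log2 change 4.54 ± 0.24, adjusted p = 1.60e-15). Selp and Cdh5, which encode P-selectin and VE-cadherin and are textbook markers of endothelium, were also among the 15 largest increases. Selp was at 0.124 and 0.0956 CPM untreated and 33.2 and 51.1 CPM treated, and Cdh5 at 0.0932 and 0.0956 CPM and 35.0 and 34.0 CPM, where the untreated value of Cdh5 stands for 3 reads a library. The 5 other endothelial markers stayed at or under 3 reads in all 4 libraries. Apob, the main protein of low density lipoproteins, went from 0.684 and 3.44 CPM to 41.0 and 81.1 CPM (log2 change 4.43 ± 0.40, adjusted p = 4.90e-10).

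The largest decreases were found in genes that untreated dm/fl cells expressed and treated cells hardly did. Ptx3 (chr3:66219887-66225806), a soluble pattern recognition protein, was at 643 and 232 CPM untreated and at 1.93 and 1.22 CPM with TGFβ, a log2 change of -7.25 ± 0.45 (adjusted p = 5.05e-14). The small leucine-rich proteoglycans Prelp and Ogn went from 375 and 175 CPM to 1.22 and 0.329 CPM and from 407 and 149 CPM to 2.56 and 0.131 CPM (log2 changes -7.23 ± 0.74 and -6.95 ± 0.65). Untreated replicate 1 was above replicate 2 in each of these 3 genes, and both were far above the treated libraries.

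Ltf, encoding the milk protein lactoferrin, went from 118 and 103 CPM to 0.530 and 0.822 CPM (log2 change -6.06 ± 0.59, adjusted p = 2.11e-09). Gas1, a growth arrest-specific membrane protein, went from 306 and 162 CPM to 3.77 and 2.27 CPM, Aspa, an aminoacylase, from 166 and 165 CPM to 3.40 and 2.63 CPM, and the glutamate transporter gene Slc1a3 from 65.6 and 49.9 CPM to 0.218 and 0.164 CPM. In Ltf, Aspa and Slc1a3 the untreated duplicates were close to each other. Steap4, a metalloreductase, went from 137 and 46.3 CPM to 0.218 and 0 CPM, and Lbp, the lipopolysaccharide binding protein, from 80.9 and 37.6 CPM to 0.218 and 0.263 CPM. Bmp4, a ligand of the TGFβ superfamily that signals through other SMAD proteins, fell from 85.4 and 68.4 CPM to 1.28 and 1.74 CPM (log2 change -4.95 ± 0.46, adjusted p = 6.88e-10). With untreated cells of both experiments as controls, which include the library that stands apart (described with the Wnt3a response), the log2 changes of Steap4, Lbp and Ogn were -3.69, -3.90 and -4.66, those of Prelp, Ltf and Aspa were -5.95, -5.14 and -4.45, and all 6 remained called.

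Within the TGFβ pathway itself, some target genes rose, feedback genes moved in both directions, and most members of each list were not called. Of 28 textbook transcriptional targets of TGFβ, 11 rose and none fell at these thresholds, against a background of 3.45% rising, and their median log2 change was 0.41. Pdgfa, a platelet-derived growth factor chain, went from 20.9 and 27.6 CPM to 197 and 272 CPM (log2 change 3.22 ± 0.39, adjusted p = 1.88e-07). The cytokine gene Il11 went from 0.249 and 0.0956 CPM to 6.89 and 13.8 CPM (log2 change 3.21 ± 0.38, adjusted p = 1.33e-07). The groups did not overlap in either gene, as in 65.1% of all genes tested. Ccn2, a matricellular growth factor, was at 210.4 and 215 CPM untreated and 1033 and 449 CPM with TGFβ. Without untreated replicate 1, TGFβ replicate 1 or untreated replicate 2, 6 of the 28 targets were called higher. Ccn2 lost the call without untreated replicate 1, TGFβ replicate 1 or untreated replicate 2 (highest adjusted p 0.406).

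Smad7, the inhibitory SMAD that TGFβ induces against its own receptor, was at 75.1 and 78.3 CPM untreated and 183 and 208 CPM with TGFβ (log2 change 1.34 ± 0.32, adjusted p = 0.00295). Tgif1 and Fstl3 also rose among the 19 feedback genes and inhibitors, while Fst, Id1, Id2, Id4 and Smad6 fell. Id1, a helix-loop-helix inhibitor that BMP signals induce, went from 37.7 and 43.1 CPM to 6.95 and 8.71 CPM (log2 change -2.23 ± 0.47), and Smad6, the inhibitory SMAD of the BMP branch, from 6.31 and 6.31 CPM to 1.496 and 1.08 CPM (log2 change -1.68 ± 0.45). Fst, the activin antagonist follistatin, went from 24.5 and 18.8 CPM to 3.43 and 1.35 CPM (log2 change -2.80 ± 0.51). The SnoN gene Skil, at 141 and 149 CPM untreated and 400.4 and 436 CPM with TGFβ, missed the threshold (log2 change 1.52 ± 0.53, adjusted p = 0.0521), as did Pmepa1 with 239 and 233 CPM and 619.7 and 483 CPM (log2 change 1.21 ± 0.46, adjusted p = 0.0838). DESeq2 and limma with untreated cells of both experiments as controls called both (DESeq2 adjusted p = 0.0401 and 0.0445). The 5 decreases were 3 without untreated replicate 1 or TGFβ replicate 2. Tgif1 lost the call without untreated replicate 1, TGFβ replicate 1 or untreated replicate 2 (highest adjusted p 0.303). Id2 lost the call without untreated replicate 1 or TGFβ replicate 2 (highest adjusted p 0.140). Smad6 lost the call without untreated replicate 1, untreated replicate 2 or TGFβ replicate 2 (highest adjusted p 0.0936).

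Of 11 ligands and latent TGFβ binding proteins tested, 3 rose and 2 fell, against 3.45% and 6.88% of all genes. Lrrc32, which holds latent TGFβ at the cell surface, went from 1.43 and 2.04 CPM to 27.7 and 26.5 CPM (log2 change 3.37 ± 0.64), and the ligand gene Tgfb3 from 128 and 95.1 CPM to 19.9 and 17.2 CPM (log2 change -2.51 ± 0.53). Bmp1, Inhba and Tgfb2 were the other 3 called. Without untreated replicate 1 or TGFβ replicate 2 only 1 gene of the list rose, and without untreated replicate 1 only 1 fell. Tgfb1 itself was at 9.01 and 10.5 CPM untreated and 20.6 and 23.2 CPM treated and was not called (log2 change 1.09 ± 0.48, adjusted p = 0.163). Among 12 receptors Tgfbr3, the co-receptor betaglycan, fell from 87.3 and 45.2 CPM to 8.66 and 5.06 CPM (log2 change -3.06 ± 0.45), and Acvrl1, a type I receptor, rose at a low level, from 0.186 and 0.0637 CPM to 1.53 and 2.20 CPM. Of the 6 SMAD genes Smad9, an effector of BMP signals, fell from 10.1 and 5.64 CPM to 0.374 and 0.296 CPM (log2 change -2.68 ± 0.25), and none rose. Bmp1 lost the call with any 1 library left out (highest adjusted p 0.297). Inhba lost the call without untreated replicate 1 or TGFβ replicate 2 (highest adjusted p 0.0885). Tgfb2 lost the call without untreated replicate 1 (highest adjusted p 0.0631).

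Among epithelial genes, some of apical polarity and trafficking fell, while the adhesion genes Cdh1 and Epcam were not called. Of 39 junction and identity genes tested, 6 fell and 2 rose, with a median log2 change of -0.16 (over all genes, 6.88% fell and 3.45% rose). Cdh1, encoding E-cadherin, was at 254 and 289.9 CPM untreated and 173 and 159 CPM with TGFβ and was not called (log2 change -0.71 ± 0.34, adjusted p = 0.220), and Epcam was at 148 and 169 CPM and 166 and 147 CPM (log2 change -0.02 ± 0.29). The keratin gene Krt8 was at 292 and 479.8 CPM and 755 and 861 CPM (log2 change 1.10 ± 0.73, adjusted p = 0.480). Cdh1 was thus lower and Krt8 higher in each treated library than in each untreated one, without passing the test. Such a separation of the groups was found in 65.1% of all genes tested.

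Rab25, a small GTPase of the apical recycling pathway, fell from 60.5 and 91.3 CPM to 6.89 and 8.51 CPM (log2 change -3.12 ± 0.51, adjusted p = 2.25e-05), and Crb3, a member of the Crumbs polarity complex, from 6.96 and 9.94 CPM to 0.280 and 0.592 CPM (log2 change -2.71 ± 0.59, adjusted p = 0.00116). Ap1m2, the epithelial subunit of the AP-1 sorting adaptor, fell from 38.5 and 49.8 CPM to 8.82 and 6.90 CPM (log2 change -2.35 ± 0.29), and Prss8, an epithelial membrane protease, from 15.4 and 27.8 CPM to 4.86 and 5.59 CPM (log2 change -1.80 ± 0.58). Marveld3, a tight junction protein, fell as well. In the opposite direction Dsg2, a desmosomal cadherin, rose from 33.7 and 40.7 CPM to 163 and 205 CPM (log2 change 2.27 ± 0.43), and Pkp2, a desmosomal plaque protein, was the other gene that rose. Among 18 regulators of the epithelial state 7 fell and none rose, with a median log2 change of -0.67. Trp63, a transcription factor of basal epithelium, fell from 55.3 and 64.6 CPM to 10.5 and 12.0 CPM (log2 change -2.31 ± 0.47), Grhl1, a grainyhead factor, from 13.8 and 14.8 CPM to 1.75 and 2.53 CPM (log2 change -2.30 ± 0.40), and Ovol1, a zinc finger repressor, from 7.89 and 9.40 CPM to 1.12 and 1.97 CPM (log2 change -1.94 ± 0.44). The remaining 4 were Klf4, Esrp2, Tfap2c and Gata3. Prss8 lost the call with any 1 library left out (highest adjusted p 0.322). Pkp2 lost the call without untreated replicate 1, untreated replicate 2 or TGFβ replicate 2 (highest adjusted p 0.277). Klf4 lost the call without untreated replicate 1 or TGFβ replicate 2 (highest adjusted p 0.197). Esrp2 lost the call without TGFβ replicate 1 or untreated replicate 2 (highest adjusted p 0.135). Gata3 lost the call without TGFβ replicate 1 (highest adjusted p 0.0777).

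**Figure D2:**
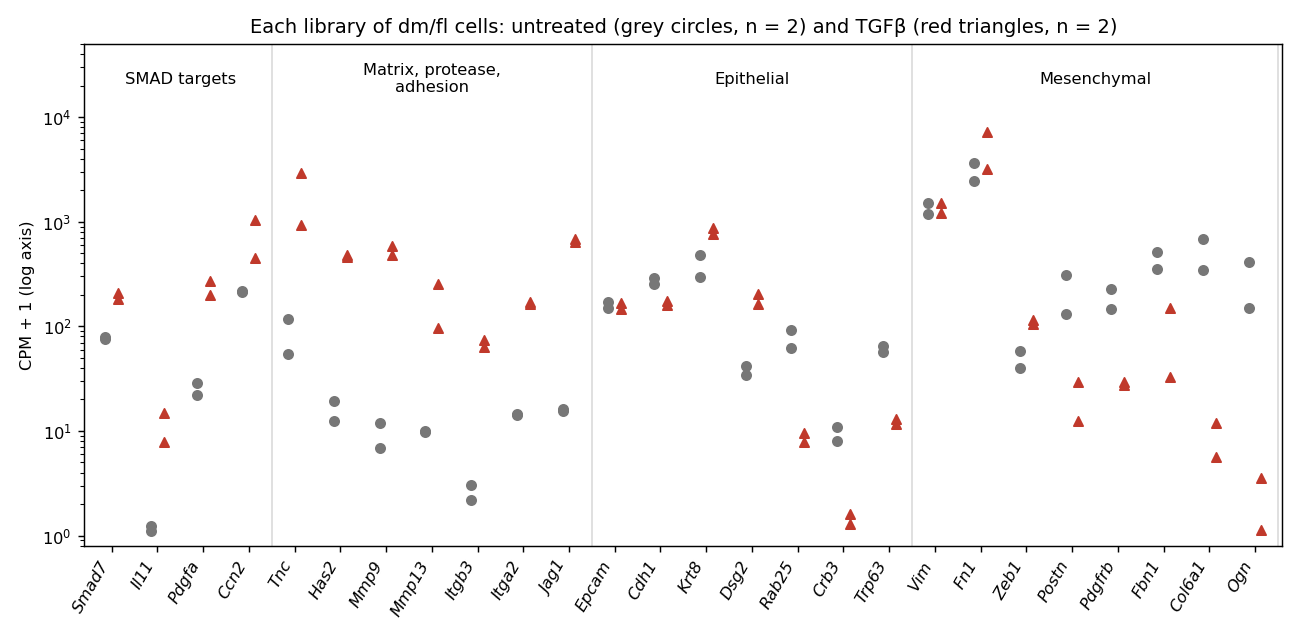
Levels of 26 genes in each dm/fl library (CPM + 1, log axis), untreated as grey circles and TGFβ as red triangles, 2 libraries each, grouped by role. In the SMAD target and matrix groups the triangles lie above the circles, in the epithelial group Epcam stays level and Cdh1 is slightly lower while Rab25, Crb3 and Trp63 drop, and in the mesenchymal group Vim stays level while Col6a1 and Ogn drop.

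Mesenchymal genes moved in both directions. Of 25 tested, 6 rose and 7 fell (over all genes, 3.45% rose and 6.88% fell), and their median log2 change was -0.28. Vim, encoding the intermediate filament vimentin, was at 1501 and 1182 CPM untreated and 1497 and 1216 CPM with TGFβ (log2 change 0.02 ± 0.77), and Fn1, encoding fibronectin, at 3648 and 2453 CPM and 7201 and 3196 CPM (log2 change 0.68 ± 0.65, adjusted p = 0.717). The groups overlapped in both genes.

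Besides Tnc, Nt5e, an ectonucleotidase, rose from 120.2 and 114 CPM to 698 and 669 CPM (log2 change 2.54 ± 0.60), Fbln2, encoding fibulin 2, from 432 and 591 CPM to 1440.1 and 1945 CPM (log2 change 1.72 ± 0.52), and Cd44, the hyaluronan receptor, from 391 and 337 CPM to 985 and 821 CPM (log2 change 1.31 ± 0.35). Tgfbi and Wnt5b were the other 2 that rose. Mgp, an inhibitor of matrix calcification, fell from 42.6 and 27.2 CPM to 0.841 and 0.296 CPM (log2 change -4.50 ± 0.63), Bgn, the proteoglycan biglycan, from 35.3 and 21.8 CPM to 3.37 and 2.70 CPM (log2 change -2.84 ± 0.50), and Fbn1, the microfibril protein fibrillin 1, from 514 and 353 CPM to 149.7 and 32.1 CPM (log2 change -2.60 ± 0.55). Postn, encoding periostin, was at 309 and 129 CPM untreated, 28.6 and 11.5 CPM with TGFβ and 1.81 and 9.53 CPM in untreated dm/fl cells of the Wnt3a experiment. With untreated cells of both experiments as controls its log2 change was -0.78 (adjusted p = 0.515), and 4 of the 25 genes fell in place of 7. The number of decreases was 3 without untreated replicate 1 and 2 without TGFβ replicate 2, and 3 genes rose without untreated replicate 1, untreated replicate 2 or TGFβ replicate 2. Wnt5a, Fbln5 and Pdgfrb, a receptor of platelet-derived growth factor (227 and 145 CPM untreated, 28.2 and 26.3 CPM with TGFβ), were the other 3 that fell. Fbln2 lost the call without untreated replicate 1, TGFβ replicate 1 or TGFβ replicate 2 (highest adjusted p 0.210). Cd44 lost the call without TGFβ replicate 1 or untreated replicate 2 (highest adjusted p 0.0957). Tgfbi and Wnt5b lost the call without untreated replicate 1, untreated replicate 2 or TGFβ replicate 2 (highest adjusted p 0.339 and 0.273). Fbn1 lost the call without TGFβ replicate 2 (highest adjusted p 0.139). Postn, Wnt5a, Fbln5 and Pdgfrb lost the call without untreated replicate 1 or TGFβ replicate 2 (highest adjusted p 0.158, 0.912, 0.245 and 0.118).

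Of 15 transcription factors of EMT, Tead2 rose and 4 fell, against 3.45% and 6.88% of all genes. Those that fell were the homeobox genes Prrx1, from 64.5 and 27.5 CPM to 7.26 and 1.87 CPM (log2 change -3.15 ± 0.44), and Prrx2, from 9.26 and 9.24 CPM to 0.187 and 0.493 CPM (log2 change -2.94 ± 0.55), together with the forkhead gene Foxc1 and Twist2. Zeb1 was at 56.9 and 38.7 CPM untreated and 104 and 115 CPM with TGFβ, higher in both treated libraries but not called (log2 change 1.20 ± 0.52, adjusted p = 0.160). Groups without overlap were found in 65.1% of all genes tested. Snai1 was at 15.6 and 21.7 CPM and 19.1 and 26.1 CPM (log2 change 0.27 ± 0.74), Snai2 at 10.3 and 5.39 CPM and 2.62 and 1.81 CPM (log2 change -1.42 ± 0.61), and Twist1 at 22.5 and 20.5 CPM and 14.9 and 15.5 CPM (log2 change -0.47 ± 0.23). None of these 3 passed the test. Cdh2, encoding N-cadherin, was at 80.2 and 45.2 CPM untreated and 72.3 and 15.8 CPM with TGFβ (log2 change -0.81 ± 0.43, adjusted p = 0.301). Tead2 lost the call with any 1 library left out (highest adjusted p 0.233).

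The collagens split by chain. Of 27 tested, 6 rose and 5 fell, against 3.45% and 6.88% of all genes. The summed level of the list was 3051 and 2456 CPM in untreated and 1888 and 1895 CPM in treated cells. In untreated dm/fl cells of the Wnt3a experiment it was 5918 (the library that stands apart) and 1463 CPM. Col6a1 (chr10:76708792-76726044) and Col6a2, the α1 and α2 chains of the microfibrillar collagen VI, fell from 689 and 342 CPM to 10.9 and 4.70 CPM and from 167 and 84.3 CPM to 3.77 and 1.12 CPM (log2 changes -5.88 ± 0.79 and -5.24 ± 0.83). Col5a1, a chain of fibrillar collagen V, fell from 207 and 139.7 CPM to 36.6 and 14.2 CPM (log2 change -2.84 ± 0.65), whereas Col5a3, another chain of the same collagen, rose from 2.36 and 1.08 CPM to 70.2 and 63.1 CPM (log2 change 4.67 ± 0.62). The untreated and treated libraries were separate in each of these chains, as in 65.1% of all genes tested. Col27a1, a fibrillar collagen, rose from 0.559 and 0.542 CPM to 24.5 and 45.0 CPM, and Col7a1, which forms the anchoring fibrils of basement membranes, from 8.39 and 18.4 CPM to 126 and 166 CPM (log2 changes 4.46 ± 0.44 and 3.43 ± 0.72). Col1a1, a chain of collagen I, was at a low level, 1.86 and 3.15 CPM untreated and 11.8 and 19.3 CPM with TGFβ (log2 change 2.22 ± 0.56). Without TGFβ replicate 2 the decreases numbered 3, and with untreated cells of both experiments as controls 8. Col5a1 lost the call without TGFβ replicate 2 (highest adjusted p 0.0952). Col1a1 lost the call without untreated replicate 1 or TGFβ replicate 2 (highest adjusted p 0.102).

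Of 17 enzymes and chaperones that build collagen, 7 fell and 2 rose, against 6.88% and 3.45% of all genes. P3h2, a prolyl hydroxylase of collagen IV, fell from 30.0 and 25.0 CPM to 1.78 and 2.73 CPM (log2 change -3.14 ± 0.46), Loxl4, a lysyl oxidase, from 329 and 309 CPM to 49.99 and 61.0 CPM (log2 change -2.51 ± 0.36), and Serpinh1, the collagen chaperone HSP47, from 181 and 175 CPM to 79.3 and 26.6 CPM (log2 change -1.93 ± 0.61). Pcolce2, an enhancer of procollagen processing, rose from 2.92 and 3.54 CPM to 36.0 and 34.9 CPM (log2 change 3.11 ± 0.63). The decreases numbered 3 without untreated replicate 1, and 4 without TGFβ replicate 2 or by edgeR. Among 13 laminin and basement membrane genes, 4 rose and 2 fell. Lama3, the α chain of laminin 332, the laminin of epithelial anchoring, rose from 93.4 and 119.5 CPM to 393 and 516 CPM (log2 change 2.08 ± 0.43), and Lamb3, its β chain, went from 70.9 and 107 CPM to 274 and 370.2 CPM (log2 change 1.86 ± 0.63). Without TGFβ replicate 1, 2 of the 13 rose. Lama4 fell from 11.7 and 4.59 CPM to 0.499 and 0.230 CPM and Nid2 from 10.2 and 3.66 CPM to 0.374 and 0.0657 CPM (log2 changes -2.63 ± 0.48 and -2.58 ± 0.45). Serpinh1 lost the call without untreated replicate 1, untreated replicate 2 or TGFβ replicate 2 (highest adjusted p 0.541). Lamb3 lost the call with any 1 library left out (highest adjusted p 0.349).

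Of 20 matrix metalloproteinases and their inhibitors, 4 proteases rose and 4 other members fell, against 3.45% and 6.88% of all genes. Besides Mmp9, the collagenase gene Mmp13 rose from 8.92 and 8.73 CPM to 254 and 95.1 CPM (log2 change 3.99 ± 0.86, adjusted p = 9.84e-04). Mmp12, a macrophage elastase, was at 0.435 and 0.319 CPM and 21.2 and 4.01 CPM, and Mmp10, a stromelysin, at 13.2 and 11.2 CPM and 143 and 53.6 CPM, with treated replicates that differed widely. Timp2, Timp3, Reck and Mmp16 fell, of which the first 3 encode inhibitors of these proteases. Timp3 went from 4603 and 2466 CPM to 1016 and 1065 CPM (log2 change -1.69 ± 0.43). None of the 4 fell without untreated replicate 1, and 2 fell without TGFβ replicate 2, by edgeR or with the controls of both experiments. In the plasminogen system Plau, the urokinase gene, rose, and the tissue activator gene Plat (53.7 and 31.8 CPM to 9.97 and 4.898 CPM, log2 change -2.40 ± 0.49) and the protease inhibitor gene Serpine2 (240.2 and 143 CPM to 44.4 and 29.5 CPM, log2 change -2.33 ± 0.44) fell, among 11 genes tested. Mmp12 and Mmp10 lost the call without TGFβ replicate 1 (highest adjusted p 0.107 and 0.106). Timp2 and Mmp16 lost the call without untreated replicate 1 or TGFβ replicate 2 (highest adjusted p 0.200 and 0.446). Timp3 lost the call without untreated replicate 1 (highest adjusted p 0.190). Reck lost the call without untreated replicate 1 or TGFβ replicate 1 (highest adjusted p 0.141). Plau lost the call without untreated replicate 1, TGFβ replicate 1 or untreated replicate 2 (highest adjusted p 0.150).

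Among 18 integrin genes 5 rose and 3 fell, against 3.45% and 6.88% of all genes. Itga2, the collagen-binding α2 subunit, rose from 13.1 and 13.4 CPM to 164.3 and 168 CPM (log2 change 3.55 ± 0.52, adjusted p = 5.05e-06), Itga11, another collagen receptor subunit, from 0.0621 and 0 CPM to 4.71 and 7.03 CPM (log2 change 2.72 ± 0.19), and Itga5, the fibronectin receptor subunit, from 138 and 137 CPM to 726 and 565 CPM (log2 change 2.21 ± 0.51). Itgb3 and Itgav, which together form the vitronectin receptor, both rose, Itgav from 235 and 206 CPM to 501 and 412 CPM (log2 change 1.04 ± 0.36). The 3 that fell were Itgb8, Itga8 and Itga1, and none of these fell without untreated replicate 1 or with the controls of both experiments, while 1 fell without TGFβ replicate 1 or TGFβ replicate 2. Of 17 hyaluronan and proteoglycan genes Has2, Cd44 and Sdc3 (33.6 and 40.1 CPM to 214 and 306 CPM) rose, and Bgn, Sdc2 and Sdc4 fell. The 3 decreases were 1 without untreated replicate 1 or TGFβ replicate 2. Among 27 actin-binding and contractile genes, 1 rose and 3 fell, near the shares over all genes (3.45% and 6.88%). Msn, encoding moesin, rose from 1349 and 1399 CPM to 3432 and 3412 CPM (log2 change 1.32 ± 0.24), and Flnc, Mylk and Lmcd1 fell, 1 of them without TGFβ replicate 2. Mylk, the myosin light chain kinase, went from 8.73 and 6.41 CPM to 0.623 and 0.986 CPM (log2 change -2.24 ± 0.39). Itgav lost the call with any 1 library left out (highest adjusted p 0.303). Itgb8, Sdc2, Sdc4 and Lmcd1 lost the call without untreated replicate 1 or TGFβ replicate 2 (highest adjusted p 0.117, 0.131, 0.260 and 0.188). Itga8 lost the call without untreated replicate 1, TGFβ replicate 1 or untreated replicate 2 (highest adjusted p 0.141). Itga1 lost the call without untreated replicate 1, TGFβ replicate 1 or TGFβ replicate 2 (highest adjusted p 0.412). Flnc lost the call without TGFβ replicate 2 (highest adjusted p 0.0865).

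Because the cells carry a mutant β-catenin allele, genes of the Wnt pathway were examined. Ctnnb1, the gene for β-catenin, was at 1327 and 1410.1 CPM untreated and 1342 and 1125 CPM with TGFβ (log2 change -0.15 ± 0.24), a value that covers both alleles. Of 20 Wnt target and feedback genes 2 rose and 4 fell, against 3.45% and 6.88% of all genes. Notum, a secreted enzyme that inactivates Wnt ligands, fell from 29.9 and 31.4 CPM to 0.530 and 1.22 CPM (log2 change -4.10 ± 0.78, adjusted p = 2.31e-04). Sfrp1, a secreted Wnt antagonist, fell from 163.5 and 114 CPM to 36.4 and 34.3 CPM (log2 change -1.92 ± 0.39), and Lgr6, a receptor of R-spondins, rose from 21.2 and 25.1 CPM to 130.2 and 105 CPM (log2 change 2.29 ± 0.48). Bmp4 and Apcdd1 were the other 2 that fell and Cd44 the other that rose. Axin2, the best known target of canonical Wnt signals, was at 3.57 and 2.74 CPM untreated and 1.28 and 0.756 CPM with TGFβ and was not called (log2 change -1.05 ± 0.49, adjusted p = 0.213), and Lef1 was at 1.68 and 1.59 CPM and 7.82 and 2.33 CPM (log2 change 1.04 ± 0.36, adjusted p = 0.0554). Axin2 was lower in both treated libraries, and Lef1 higher, without passing the test. The groups did not overlap in 65.1% of all genes tested. With 1 library left out, the log2 change of Lef1 ranged from 0.34 to 1.74. Among 12 ligands, Wnt9a rose from 7.21 and 9.97 CPM to 41.9 and 42.3 CPM (log2 change 2.18 ± 0.44), Rspo1, encoding R-spondin 1, from at most 1 read to 4.99 and 11.7 CPM, and Wnt5b and Wnt11 were the other 2 that rose, 2 of the 4 without TGFβ replicate 2. Wnt4 (18.2 and 29.5 CPM to 3.71 and 5.09 CPM) and Wnt5a fell. Apcdd1 lost the call without untreated replicate 1 or TGFβ replicate 2 (highest adjusted p 0.263). Wnt4 lost the call without untreated replicate 2 (highest adjusted p 0.0596).

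In the Notch pathway 3 of 12 genes rose and 1 fell, where 3.45% of all genes rose and 6.88% fell. Besides Jag1, the receptor gene Notch4 rose from 1.12 and 1.75 CPM to 17.0 and 26.03 CPM (log2 change 3.19 ± 0.52) and the target gene Hes1 from 11.5 and 12.2 CPM to 25.9 and 27.0 CPM (log2 change 1.10 ± 0.29), while the receptor gene Notch3 fell from 24.6 and 36.1 CPM to 2.31 and 3.98 CPM (log2 change -2.93 ± 0.61). Of 26 receptor tyrosine kinase and growth factor genes 5 rose and 7 fell, against the same shares of 3.45% and 6.88%. Hgf, the ligand of the receptor Met, rose at a low level, from 0.0311 and 0.0319 CPM to 3.27 and 5.95 CPM (log2 change 2.40 ± 0.37), and Vegfc, a growth factor of lymphatic vessels, from 19.5 and 11.3 CPM to 70.4 and 62.7 CPM (log2 change 2.09 ± 0.47). Erbb3, a receptor of neuregulins, fell from 56.4 and 94.6 CPM to 15.9 and 23.9 CPM (log2 change -1.85 ± 0.47), and Fgfr2 from 34.5 and 44.2 CPM to 10.2 and 10.3 CPM (log2 change -1.84 ± 0.42). The decreases numbered 2 without untreated replicate 1, 3 without TGFβ replicate 2 and 4 with the controls of both experiments, and the increases 3 without TGFβ replicate 1 and 2 without untreated replicate 2. Hes1 lost the call without untreated replicate 1 or TGFβ replicate 2 (highest adjusted p 0.0735). Vegfc lost the call without untreated replicate 2 (highest adjusted p 0.0521). Erbb3 lost the call without TGFβ replicate 1 or untreated replicate 2 (highest adjusted p 0.115).

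Most interferon-stimulated genes, some of the cytokine genes and a few of antigen presentation were called lower with TGFβ. Of 30 interferon-stimulated genes 21 fell and none rose (70.0%, against 6.88% of all genes falling), with a median log2 change of -2.19. Irf7, the transcription factor that amplifies interferon production, was at 116 and 40.9 CPM untreated and 1.99 and 1.68 CPM with TGFβ (log2 change -4.63 ± 0.71, adjusted p = 1.01e-05). Ifit3, an antiviral RNA-binding partner whose promoter is shown above, went from 76.5 and 20.3 CPM to 0.748 and 0.493 CPM (log2 change -4.65 ± 0.47, adjusted p = 3.79e-09), and Isg15, a ubiquitin-like modifier, from 89.6 and 36.0 CPM to 8.26 and 5.19 CPM (log2 change -2.93 ± 0.65). In all of them untreated replicate 1 stood well above replicate 2. Ifit1, a sensor of viral RNA ends, went from 198 and 78.6 CPM to 10.3 and 4.01 CPM, and Rsad2, the antiviral enzyme viperin, from 40.02 and 21.6 CPM to 4.27 and 1.05 CPM. Isg15 lost the call without untreated replicate 1 (highest adjusted p 0.0782).

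These decreases depended on the untreated libraries. Each of the 21 genes was higher in untreated replicate 1 than in replicate 2, with a median ratio of 2.45, against 73.5% and 1.27 over all 946 genes that fell. The summed level of the list was 2894 and 1360 CPM in untreated cells, 556 and 573 CPM with TGFβ, and 765 and 400 CPM in untreated dm/fl cells of the Wnt3a experiment, which were cultured for 3 days. In 18 of the 21 genes the mean of those 3-day untreated cells was less than 50% of that of the 4-day untreated cells, and in only 4 were both treated values below all 4 untreated libraries, against 726 of all 946 genes that fell (76.7%). Without untreated replicate 1 9 genes of the list fell, and 13 fell with untreated cells of both experiments as controls. The part of the untreated replicate and of the days in culture in these decreases was not tested.

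**Figure D3:**
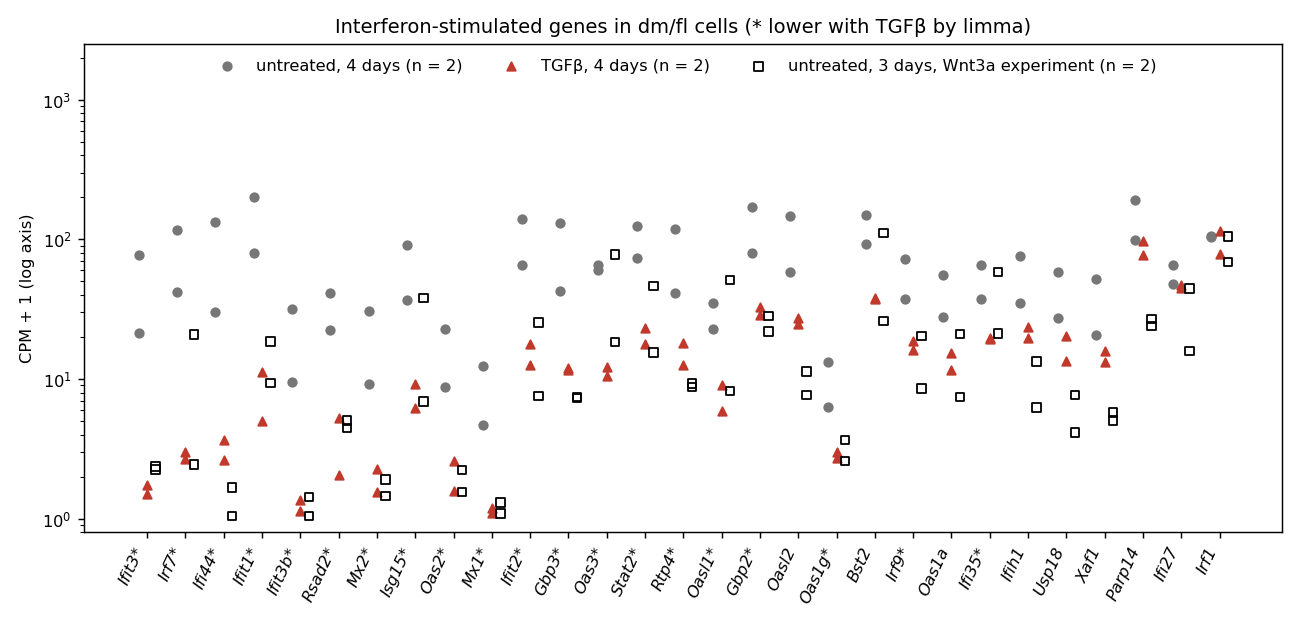
Levels of interferon-stimulated genes in each dm/fl library (CPM + 1, log axis): untreated for 4 days (grey circles), TGFβ for 4 days (red triangles) and untreated for 3 days in the Wnt3a experiment (open squares), 2 libraries each, with asterisks on genes that fell. For the genes with an asterisk the circles lie above the triangles, and the squares mostly lie below the circles.

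Of 29 chemokines and cytokines 12 fell and 2 rose, with a median log2 change of -1.05. Cxcl10, an interferon-induced chemokine, fell from 20.2 and 14.3 CPM to 1.06 and 0.690 CPM (log2 change -3.27 ± 0.63), Cxcl5, a neutrophil chemokine, from 592 and 451 CPM to 66.9 and 59.3 CPM (log2 change -3.02 ± 0.65), and the alarmin gene Il33 from 28.6 and 13.3 CPM to 0.218 and 0.427 CPM (log2 change -3.96 ± 0.60). Il1rn, the interleukin 1 receptor antagonist, fell from 106 and 45.6 CPM to 5.33 and 7.26 CPM, and Csf1, the macrophage growth factor, from 839 and 731 CPM to 292 and 325 CPM. With TGFβ 10 of the 12 (83.3%) were below all 4 untreated libraries, near the 76.7% over all 946 genes that fell. Fewer members of the list fell with any 1 library left out. Csf2, encoding the growth factor GM-CSF, rose from 0.311 and 0.414 CPM to 24.8 and 11.6 CPM (log2 change 3.73 ± 0.58), next to Il11. Among 16 antigen presentation genes 5 fell and none rose, where 6.88% of all genes fell and 3.45% rose. Psmb8, a subunit of the immunoproteasome, went from 32.0 and 14.1 CPM to 2.96 and 0.559 CPM (log2 change -3.17 ± 0.65), and Nlrc5, the transactivator of class I genes, from 14.6 and 6.596 CPM to 0.841 and 0.493 CPM (log2 change -2.71 ± 0.44), next to Tap1, Tap2 and Psmb9. The class I genes B2m, at 547 and 295 CPM untreated and 408 and 346 CPM with TGFβ, and H2-K1, at 267 and 217 CPM and 208 and 218 CPM, were not called (log2 changes -0.10 ± 0.38 and -0.17 ± 0.40). With 1 library left out, 2 or 3 of the 16 fell, 3 without untreated replicate 2 and 2 without any of the others. Csf1, Tap1 and Tap2 lost the call with any 1 library left out (highest adjusted p 0.147, 0.209 and 0.0893). Psmb9 lost the call without untreated replicate 1, TGFβ replicate 1 or TGFβ replicate 2 (highest adjusted p 0.249).

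Mammary luminal and basal genes fell in part. Of 23 luminal and milk genes 6 fell and 1 rose, against 6.88% and 3.45% of all genes. Esr1, the estrogen receptor, was at 60.1 and 59.3 CPM untreated and 10.97 and 10.6 CPM with TGFβ (log2 change -2.37 ± 0.36, adjusted p = 9.27e-06), and Pgr, the progesterone receptor, at 6.99 and 4.97 CPM and 0.156 and 0.263 CPM (log2 change -2.52 ± 0.13). Of all libraries of the series, only these 2 untreated ones reached 1 CPM of Pgr, so it was tested through them alone. Its small standard error thus rests largely on conditions below 1 CPM. With untreated cells of both experiments as controls the log2 change of Pgr was -1.35. In Esr1 the duplicates of each group were nearly equal. Aldh1a3, a retinal dehydrogenase, rose from 0.373 and 0.478 CPM to 12.7 and 11.3 CPM (log2 change 3.19 ± 0.53), and Ltf, Lcn2, Xdh and Gata3 were the other 4 that fell. Of 25 basal and stratified epithelial genes 8 fell and Lce1f rose. Krt6a, a keratin of stressed epithelium, fell from 141 and 102 CPM to 2.65 and 9.57 CPM (log2 change -4.28 ± 0.87), and Klk10, a secreted protease, from 109 and 93.7 CPM to 3.71 and 7.82 CPM (log2 change -3.99 ± 0.75). The basal keratin gene Krt14, at 367 and 483 CPM untreated and 199 and 397 CPM with TGFβ, was not called. The 8 decreases were 13 by DESeq2 or in a fit of only the 4 libraries, and 15 with the controls of both experiments. Lcn2 lost the call without untreated replicate 1 or TGFβ replicate 2 (highest adjusted p 0.106).

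Cell cycle genes were hardly called in dm/fl cells. In the fit over all 56 libraries, none of 27 DNA replication and S phase genes, 24 mitosis genes and 10 cell cycle inhibitors passed the limma thresholds, with median log2 changes of 0.41, 0.12 and -0.34, and edgeR called none of them. At an unadjusted p below 0.05 the counts were 0, 0 and 1, and DESeq2 called 0, 0 and 1. The fit of only the 4 libraries called 1 S phase gene higher, and the fit of 28 libraries and the one without TGFβ replicate 1 called 1 inhibitor lower. Summed levels of the S phase list were 2416 and 2936 CPM untreated and 3558 and 3671 CPM with TGFβ. In untreated dm/fl cells of the Wnt3a experiment they were 5130.6 (the library that stands apart) and 4738.5 CPM, above the treated libraries. With untreated cells of both experiments as controls the median log2 change of this list was 0.05. Ccnd1, cyclin D1, was at 1011 and 1038 CPM and 1121 and 1009.9 CPM (log2 change 0.05 ± 0.38), Myc at 87.8 and 107 CPM and 166 and 133 CPM (log2 change 0.61 ± 0.48), and the inhibitor gene Cdkn1a at 74.1 and 100.4 CPM and 84.2 and 128 CPM (log2 change 0.26 ± 0.36). Cdkn2b, a cytostatic target of TGFβ in normal epithelium, was at 24.3 and 14.2 CPM untreated and 14.1 and 2.47 CPM with TGFβ (log2 change -1.44 ± 0.52, adjusted p = 0.0685). No member of the cholesterol synthesis list (22 genes) was called by edgeR, DESeq2 or limma over all 56 libraries (2 at an unadjusted p below 0.05), while limma called 4 lower in the fit of only the 4 libraries, 3 in that of 28, 2 with the GC trend removed and 1 without TGFβ replicate 1 or untreated replicate 2. The list stood at a median log2 change of -0.67 and summed levels of 6991 and 5738 CPM untreated and 4593 and 3472 CPM treated. In untreated dm/fl cells of the Wnt3a experiment the sums were 7794.5 (the library that stands apart) and 4076.5 CPM. Of 28 glycolysis and hypoxia genes 3 fell (Pdk1, Bnip3 and Adm) and Vegfa rose, near the shares of 6.88% and 3.45% over all genes, and of 16 YAP/TEAD targets Ccn2 and Nt5e rose and Crim1 and Ptpn14 fell. Both of these counts changed by more than 1.5 times when 1 library was left out, down to 1 decrease in each list without untreated replicate 1 or TGFβ replicate 2. For glycolysis and hypoxia, no gene rose without TGFβ replicate 1 or untreated replicate 2, and 2 rose without TGFβ replicate 2. Of the YAP/TEAD targets 1 rose without untreated replicate 1, TGFβ replicate 1 or untreated replicate 2. Bnip3, Adm and Crim1 lost the call without untreated replicate 1 or TGFβ replicate 2 (highest adjusted p 0.131, 0.133 and 0.176). Vegfa lost the call without TGFβ replicate 1 or untreated replicate 2 (highest adjusted p 0.117).

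**Figure D4:**
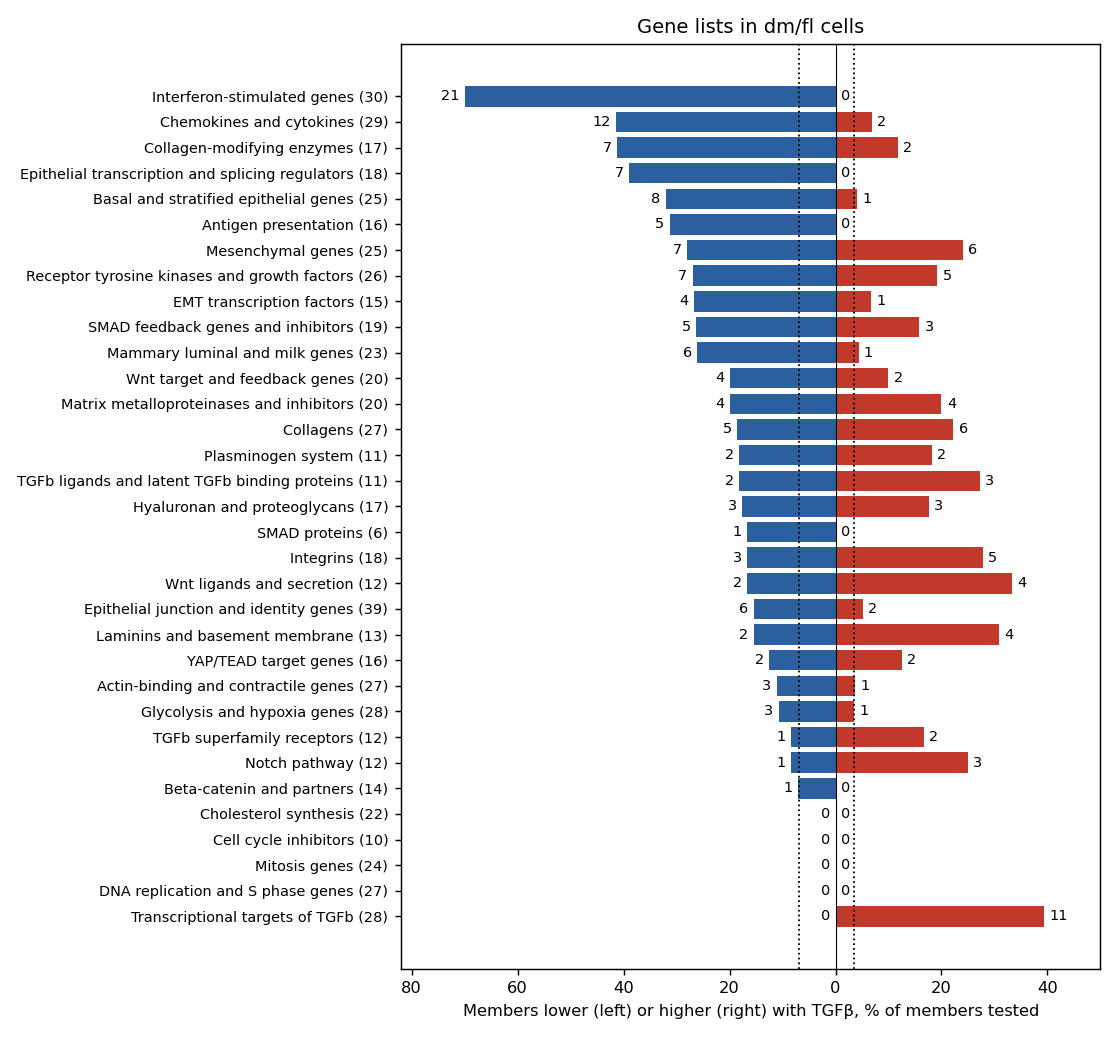
Share of each gene list called in dm/fl cells, lower with TGFβ to the left (blue) and higher to the right (red), in percent of the members tested, with the number of genes beside each bar and the number tested after each name. Dotted lines mark the shares over all genes, 6.88% lower and 3.45% higher. The interferon-stimulated genes reach furthest to the left (21 of 30), and the cell cycle and cholesterol lists have no bar.

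Among the markers of other cell types 2 rose and 3 fell with TGFβ, where 3.45% of all genes rose and 6.88% fell. Most of these markers were too low to be tested. The summed level of the 8 fibroblast markers was 551 and 329 CPM untreated and 140 and 103 CPM with TGFβ, carried by Pdgfra and Pdgfrb, which fell, while Col1a1 rose at a low level (above) and Thy1, Lum and Dpt were at or under 3 reads. With untreated cells of both experiments as controls Pdgfra was not called (log2 change -0.68, limma, adjusted p = 0.238). Pdgfrb was still called with these controls (log2 change -2.17, adjusted p = 0.0118). No leukocyte marker was called, but only Cd68, Csf1r and Lyz2 of them were tested. The sums of the leukocyte markers overlapped, 340 and 436 CPM untreated and 449 and 427 CPM with TGFβ, nearly all from Csf1r. The adipocyte marker Fabp4 fell from 23.6 and 10.1 CPM to 0.904 and 0.460 CPM (log2 change -3.31 ± 0.27), with the other 4 markers at or under 3 reads. Endothelial markers summed to 0.218 and 0.319 CPM untreated and 35.2 and 34.1 CPM with TGFβ, from Cdh5. Epithelial markers summed to 2224 and 3163 CPM untreated and 3654 and 4154 CPM with TGFβ. Pdgfra lost the call without untreated replicate 1 or TGFβ replicate 2 (highest adjusted p 0.202).

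To ask whether the response depended on the genotype, it was tested against that of fl/fl cells, in which both β-catenin alleles are floxed and functional. The log2 change differed for 555 genes (4.04% of those tested), 435 of them more negative in dm/fl cells (3.16%) and 120 more positive (0.872%). In 324 of the 435 the gene fell in dm/fl cells, and in 258 untreated fl/fl cells were below 1 CPM, so that the starting levels differed. Ogn, for example, had no reads in fl/fl cells in either condition. Fbn1 fell in dm/fl cells (above) and was at 0.337 ± 0.264 CPM untreated and 4.91 ± 1.59 CPM with TGFβ in fl/fl cells (mean ± SD, n = 2), a difference of -4.73 ± 0.77 in log2 change (limma, adjusted p = 8.48e-05). The direction of the 2 responses was opposite in Fbn1. Col6a1 was at 0.403 ± 0.569 CPM and 0.162 ± 0.0214 CPM in fl/fl cells, a difference of -5.67 ± 1.12. Nrep fell in dm/fl cells, at 25.4 and 10.8 CPM untreated and 8.07 and 2.00 CPM with TGFβ, and in fl/fl cells it was at 23.4 ± 0.740 CPM and 360.0 ± 6.74 CPM (difference -5.65 ± 0.83, adjusted p = 1.57e-05). With untreated dm/fl cells of both experiments as controls the log2 change of Nrep in dm/fl cells was -0.60 and was not called (limma, adjusted p = 0.439). EdgeR did not call the differences of Ogn, Col6a1 and Prelp (adjusted p = 1.00, 0.470 and 1.00). Nrep lost the call without untreated replicate 1 or TGFβ replicate 2 (highest adjusted p 0.649).

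In the other direction Cd93, a transmembrane receptor known from endothelial and myeloid cells, rose in dm/fl cells from 8.42 and 12.9 CPM to 59.4 and 75.4 CPM, while fl/fl cells had 38.8 ± 13.6 CPM untreated and 5.26 ± 1.41 CPM treated (difference 5.21 ± 0.65, adjusted p = 9.08e-07). Cdh5 rose further in dm/fl cells than in fl/fl cells, where it went from 0.121 ± 0.171 CPM to 3.30 ± 0.531 CPM (difference 3.08 ± 0.37, adjusted p = 6.61e-07 by limma, 0.424 by edgeR and 0.289 by DESeq2). The differences of Jag1 (2.40 ± 0.78, adjusted p = 0.0805) and Vim (-3.61 ± 1.09, adjusted p = 0.0533) missed the threshold, and both were called by DESeq2 (adjusted p = 0.0367 and 0.0295) and in the fit of the 28 libraries of the TGFβ experiment. Mmp9 differed by -2.22 ± 1.22 (adjusted p = 0.589). Vim started at 44.0 ± 8.15 CPM in untreated fl/fl cells and reached 591 ± 307 CPM with TGFβ, both below its level in untreated dm/fl cells. Of the genes that rose in dm/fl cells 228 also rose in fl/fl cells (48.1% of the dm/fl genes and 50.1% of the 455 fl/fl genes), and of those that fell 204 did so (21.6% of the dm/fl genes and 50.4% of the 405 fl/fl genes). In fl/fl cells 6.25% of genes were called, 3.31% higher and 2.94% lower. Of the interferon-stimulated genes 6 differed between the genotypes, and the median log2 change of the list was -0.34 in fl/fl cells.

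The comparison with dm/- cells, which share the dm allele and lack the floxed one, gave 1005 genes with a different response (7.31%), 760 more negative (5.53%) and 245 more positive (1.78%) in dm/fl cells. Of the 760, 515 fell in dm/fl cells, 201 rose in dm/- cells, and 346 were below 1 CPM in untreated dm/- cells. Vim was at 0.152 ± 0.0852 CPM in untreated dm/- cells and 155 ± 124 CPM with TGFβ (mean ± SD, n = 2), against a log2 change of 0.02 ± 0.77 in dm/fl cells (difference -6.79 ± 1.09, adjusted p = 4.49e-05). Fbn1 went from 1.18 ± 0.713 CPM to 12.3 ± 2.23 CPM in dm/- cells (difference -5.24 ± 0.77), and Col6a1 from 1.52 ± 1.05 CPM to 16.1 ± 8.34 CPM (difference -8.62 ± 1.12, adjusted p = 1.63e-06). These genes were low in untreated dm/- cells and high in untreated dm/fl cells. Pdgfrb went from 0.400 ± 0.134 CPM to 58.2 ± 58.3 CPM (difference -7.62 ± 1.01), and Lbp from 0.886 ± 0.303 CPM to 10.3 ± 6.51 CPM (difference -7.97 ± 0.86).

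Of the mesenchymal list 11 genes rose and none fell in dm/- cells (3.68% of all genes rose there), with a median log2 change of 1.49, and 11 of the 25 differed from dm/fl cells. Collagens showed 12 increases and no decrease in dm/- cells, and 8 of the 27 differed. The growth factor gene Areg rose in dm/fl cells from 19.6 and 19.9 CPM to 80.6 and 94.2 CPM and went from 79.7 ± 18.3 CPM to 6.93 ± 1.02 CPM in dm/- cells (difference 5.42 ± 0.96, adjusted p = 1.74e-04). Jag1 rose less in dm/- cells, from 68.0 ± 3.03 CPM to 244 ± 7.29 CPM (difference 3.55 ± 0.78, adjusted p = 0.00218), and Sema7a, a membrane-anchored semaphorin, went from 0.901 and 0.829 CPM to 41.1 and 13.6 CPM in dm/fl cells, against 5.83 ± 2.71 CPM untreated and 2.21 ± 0.0877 CPM treated in dm/- cells (difference 4.77 ± 0.72). Myc was at 364 ± 109 CPM and 83.0 ± 27.3 CPM and Ccnd1 at 580.0 ± 9.10 CPM and 165 ± 44.2 CPM in untreated and treated dm/- cells, with differences of 2.73 ± 0.67 (adjusted p = 0.00679) and 1.89 ± 0.54 (adjusted p = 0.0219). Cyclin D1 and Myc were thus lower with TGFβ in dm/- cells, and the difference of Ccnd1 was lost with all but 1 of the 8 libraries left out in turn (adjusted p up to 0.139). The median log2 change of the S phase list was -1.23 in dm/- cells, with no gene of the list past the thresholds of the difference. Of the interferon-stimulated genes 17 differed, with a median of 0.36 in dm/- cells, and the dependence on the untreated dm/fl libraries given above holds here too. The genes that rose in both were 34.6% of those of dm/fl and 32.4% of the 506 of dm/- cells, those that fell in both 98 (10.4% of dm/fl, 29.2% of the 336 of dm/-), and 46 genes fell in dm/fl and rose in dm/- cells. In dm/- cells 6.12% of genes were called, 3.68% higher and 2.44% lower. Areg lost the call with any 1 library left out (highest adjusted p 0.196).

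Against the mean response of the other 6 genotypes, 848 genes differed (6.17%), 682 more negative (4.96%) and 166 more positive (1.21%) in dm/fl cells. Among the 946 genes that fell in dm/fl cells 569 differed from this mean in the same direction, and among the 474 that rose 145 did. These genes were selected on the same dm/fl libraries that enter the difference. A shared direction is thus partly built in, and the counts are no separate test. Ptx3 changed by -1.27 as the mean of the other 6 (difference -5.98 ± 0.48, adjusted p = 7.63e-11), Col6a1 by 0.10 (difference -5.99 ± 0.85), and Ccn5, a matricellular protein that fell from 150.1 and 57.0 CPM to 1.03 and 0.559 CPM in dm/fl cells, by a mean of 0.00 (difference -5.72 ± 0.89). Plxna4 changed by a mean of 0.77 in the others (difference 3.77 ± 0.26, adjusted p = 2.39e-12), and Selp by 1.61 (difference 3.64 ± 0.24). By edgeR the positive differences of Plxna4, Selp, Cdh5, Apob and St8sia2 and the negative one of Ogn were not called.

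A smaller group of genes rose in every line. In all 7 genotypes 19 genes were called higher with TGFβ, each against untreated cells of its own line, among them Adarb1, Adgra1, Ccn2, Ccn4, Cd40, Chst11, Clu, Ctsw, Ephb2, Igfbp7, Itgb3, Mmp12, Mmp9, Olfm2, Tmsb4x, Tnc and Tns1, named after their values were seen. Clu, encoding the secreted chaperone clusterin, rose in dm/fl cells from 358 and 356 CPM to 4667 and 6434 CPM, and Tmsb4x, encoding the actin-sequestering peptide thymosin β4, from 174 and 142 CPM to 2041 and 1517 CPM. Of the decreases 1 was common to all 7 genotypes, Ankrd22, at 29.2 and 28.3 CPM untreated and 5.11 and 4.86 CPM with TGFβ in dm/fl cells. Calls in dm/fl cells alone numbered 127 of 474 increases (26.8%) and 473 of 946 decreases, a count of calls in which the differences were not each tested. ΔC/fl cells shared the most decreases with dm/fl cells, 289 (30.5% of the dm/fl genes and 46.8% of the 618 of ΔC/fl cells). D164A/- cells shared the fewest, 38 (4.02% of the dm/fl genes and 20.3% of the 187 of D164A/- cells). These counts depend on how many decreases each line had. As a share of its own decreases, fl/fl cells were highest, at 50.4%. Chst11 lost the call without TGFβ replicate 1 or untreated replicate 2 (highest adjusted p 0.109). Tns1 and Ankrd22 lost the call with any 1 library left out (highest adjusted p 0.201 and 0.0715).

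**Figure D5:**
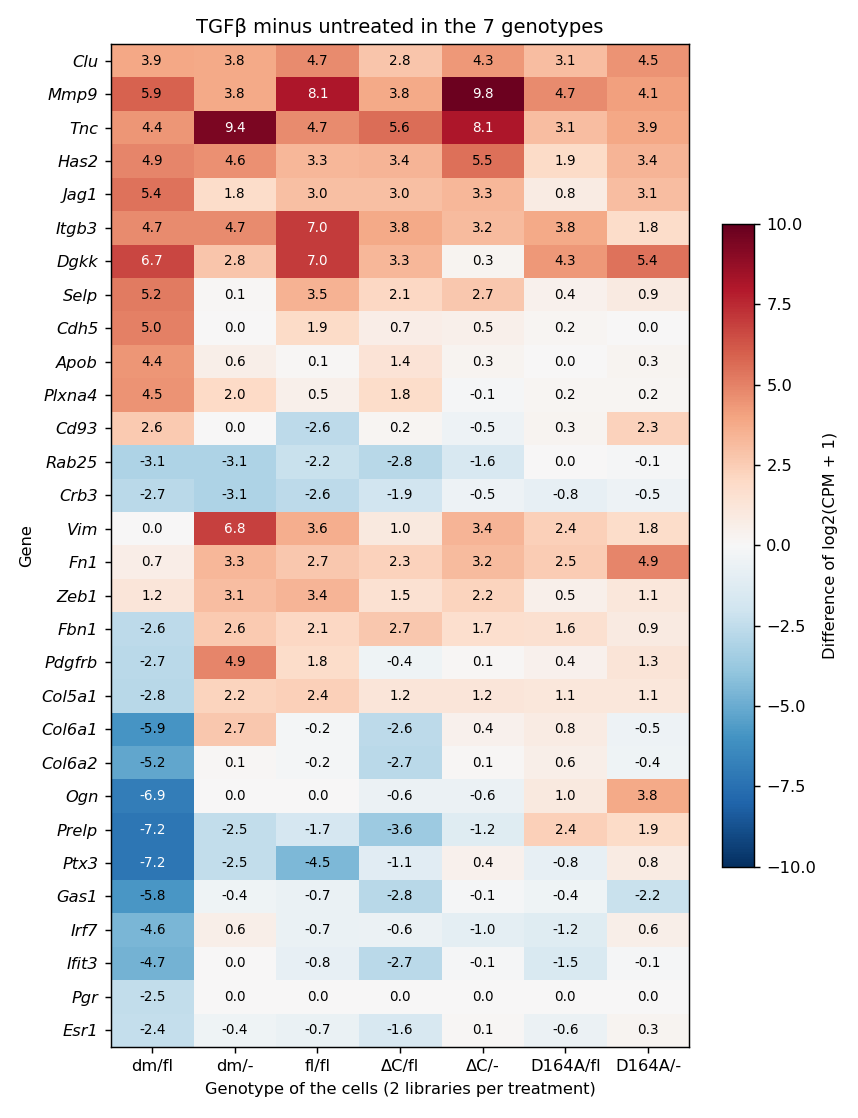
TGFβ minus untreated, as the difference of log2(CPM + 1), of 30 genes (rows) in the 7 genotypes (columns), 2 libraries per treatment, red higher and blue lower with TGFβ. Clu, Mmp9 and Tnc are red in each column, and in the dm/fl column Fbn1, Pdgfrb, Col5a1, Col6a1 and Ogn are blue and Vim is near 0. Pdgfrb, Col6a1, Ogn and Vim are among the genes named for their large differences between dm/fl and other cells. That the dm/fl column differs in these rows therefore follows from the choice of genes. Starting levels also differed, with no reads of Ogn in fl/fl cells.

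The response of the same cells to Wnt3a was set beside these values. In the Wnt3a experiment 79 genes were called in dm/fl cells (0.574% of those tested), 47 higher and 32 lower. Axin2 was at 3.18 and 1.54 CPM untreated and 127 and 103 CPM with Wnt3a (log2 change 5.15, adjusted p = 4.08e-08), whereas TGFβ left it uncalled. Of the genes that rose with TGFβ 12 rose with Wnt3a as well, among them Has2, from 0.998 and 9.38 CPM to 38.1 and 71.0 CPM (log2 change 3.54, adjusted p = 0.0224). Of those that fell with TGFβ 34 were called with Wnt3a, 28 of them lower, such as Slc1a3, from 14.1 and 36.7 CPM to 1.25 and 1.03 CPM, Ptx3, from 167 and 176 CPM to 72.8 and 17.8 CPM, and Id2, from 134 and 90.6 CPM to 19.7 and 18.3 CPM. Without untreated replicate 1 of this experiment the Wnt3a calls of Has2, Ptx3 and Id2 were lost, and those of Axin2 and Slc1a3 were kept. These 46 genes were 3.24% of the genes called with TGFβ and 58.2% of those called with Wnt3a. Untreated replicate 1 of this experiment stood apart from replicate 2 (correlation 0.833, against 0.896 to 0.995 in the other conditions), with Krt14 at 2694 and 696 CPM, Snai1 at 106 and 8.64 CPM and Vim at 3536 and 1660.0 CPM in the pair. Without this library 43 genes were called with Wnt3a, 28 of them among the 79, and without replicate 2, which leaves the library that stood apart as the only control, 5875. The TGFβ comparison used none of these libraries as controls, except where untreated cells of both experiments are named as controls, which includes the library that stood apart. In all, 1509 genes were called with TGFβ when the library that stood apart was left out of the shared fit.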

How the data were processed

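RNA-seq was done on 56 libraries of 7 genotypes. Per the labels and methods, poly(A) RNA was sequenced single-end and stranded, reads were aligned with STAR to mm10, and uniquely mapped reads were counted per gene with QuasR. The authors deposited 1 table of 20314 genes whose values, a normalized signal called CPM here, are reads per gene over an effective library size (implied factors 0.809 to 1.14). All values came out as whole reads (100% within 0.001 read), so the total reads in genes were recovered (22396315 to 33681869 per library). No column was left unmapped. In the dm/fl libraries, 3 reads correspond to 0.0932 to 0.0986 CPM, the level below which a gene is given as at or under 3 reads.

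The 13754 genes that reached 1 CPM in 2 or more libraries were tested on log2(CPM + 1) with limma 3.58.1 in R 4.3.3 (1 coefficient per condition, 28 residual degrees of freedom, moderated variances with a trend, Benjamini-Hochberg adjustment). This scale understates changes of low genes. Differences between genotypes were contrasts of the same fit. The code was tested on simulated data. Tables were handled in Python 3.11.15 with pandas 2.3.3 and numpy 2.4.6. Alternatives were edgeR 4.0.16 (quasi-likelihood) and DESeq2 1.42.0 on the whole reads, other scalings, filters, pseudocounts and sample sets, a replicate block, removal of the GC trend, and leaving out each library. The fit without the library that stands apart and a crossed block were chosen after seeing the data.

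Members and gene lists (33 lists, 664 of 665 genes matched) were chosen with earlier results of these data known. Named genes were the 15 largest non-overlapping increases and decreases with a mean of at least 10 CPM in the higher group, up to 5 called members and the 2 most abundant uncalled members of each list, 23 fixed genes, and the 5 largest differences in each direction between genotypes. The text also names 52 genes outside this rule, chosen after their values were seen. A few genes are not reported here. Duplicates differed far beyond sampling noise (chi-square per degree of freedom 52.8 and 53.7). Gene coordinates are GRCm38. Reads of Ass1 and its pseudogene copy cannot be told apart, and neither is reported.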

Additional observations from a re-analysis of the deposited data

Results flagged for a closer look

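The log2 changes of the genes below differed between dm/fl cells and other genotypes, each tested as the difference of 2 log2 changes by limma. They are the largest such differences in each direction. A gene hardly expressed in untreated cells of the other line could not fall there, so its difference follows its change in dm/fl cells. Ogn, without reads in fl/fl cells, and Col6a1, below 1 CPM there, are such genes. EdgeR called neither of them against fl/fl cells, nor Prelp. Against fl/fl cells, the response of dm/fl cells was more negative for Ogn (difference -6.95), Ifi44 (-5.89), Col6a1 (-5.67), Nrep (-5.65) and Prelp (-5.49). Ifi44, an interferon-stimulated gene, changed by -4.36 in dm/fl cells and by 1.53 in fl/fl cells, and with untreated dm/fl cells of both experiments as controls its change in dm/fl cells was -1.57 (adjusted p = 0.0759). It was more positive for Cd93 (5.21), Orm1 (4.37), Apob (4.30), Plxna4 (4.08) and Prlr (3.77), of which Plxna4 reversed with edgeR (-1.47) and DESeq2 (-0.88). Orm1, an acute phase protein, and Prlr, the prolactin receptor, were not called within dm/fl cells. In fl/fl cells Orm1 had mean levels of 27.2 CPM untreated and 0.475 CPM with TGFβ, and Prlr of 15.3 and 0.140 CPM.

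Against dm/- cells, the response was more negative for Col6a1 (-8.62), Lbp (-7.97), Pdgfrb (-7.62), Ogn (-6.96) and Vim (-6.79). It was more positive for Areg (5.42), Selp (5.16), Cdh5 (5.02), Sema7a (4.77) and Hhip (4.16). Hhip, a binding protein of Hedgehog ligands, was not called within dm/fl cells and had mean levels of 36.4 CPM untreated and 0.964 CPM with TGFβ in dm/- cells. Against the mean response of the other 6 genotypes, the most negative differences were those of Ogn (-7.54), Prelp (-6.44), Col6a1 (-5.99), Ptx3 (-5.98) and Ccn5 (-5.72). The most positive were those of Cdh5 (4.45), Apob (3.97), Plxna4 (3.77), Selp (3.64) and St8sia2 (3.33). The cause of these differences was not tested, and genotype and cell line cannot be told apart in them.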

How the results depend on the processing

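Duplicates were few, and with 1 library left out the TGFβ response of dm/fl cells gave 901 to 1198 called genes in place of 1420. Under 10 other settings the count was 1372 to 1804, and at an unadjusted p of 0.05 and 1.5-fold it was 2554. The differences between genotypes depended more on the setting. Against fl/fl cells, 555 genes became 96 with edgeR (90 of them among the 555), 245 with DESeq2, 963 with the 28 libraries of the experiment, 1492 at unadjusted p and 1.5-fold, and 291 to 547 with 1 library left out, the fewest without untreated dm/fl replicate 1. Against dm/- cells, 1005 became 568 with edgeR, 1942 with only the libraries compared, 2036 with the 28 libraries, 2461 at unadjusted p and 1.5-fold, and 558 to 934 with 1 left out. Against the mean of the other 6, 848 became 349 with edgeR, 1318 with only the libraries compared or the 28 libraries, 1961 at unadjusted p and 1.5-fold, and 417 to 859 with 1 left out. The cause of these shifts was not tested. For Wnt3a, 79 became 14 with edgeR, 129 with DESeq2 (22.5% of them higher, against 59.5%), 0 with only the 4 libraries compared (64 at an unadjusted p below 0.05), 28 with the 28 libraries, 2065 at unadjusted p and 1.5-fold, and 43 to 5875 with 1 left out.

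Libraries share replicate numbers, which the sources do not tie to a day or batch. Same-numbered dm/fl libraries of the TGFβ experiment deviated together (correlation 0.573), those of ΔC/- did not (-0.246), nor did those of dm/fl in the Wnt3a experiment (-0.0992). With the number as a replicate block, 1737 genes were called in the TGFβ response, 989 and 1938 differed from fl/fl and dm/- cells, 1278 from the mean of the other 6 (1284 with the ΔC/- pairing crossed), and 258 were called with Wnt3a. The block also called Skil and Pmepa1 (adjusted p = 0.00397 and 0.0125), 3 cholesterol synthesis genes, 1 S phase gene and 1 cell cycle inhibitor.

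Of the 196 named genes called in the TGFβ response, 67 lost the call in at least 1 fit with a library left out. The direction of Plxna4 against fl/fl cells reversed with edgeR (-1.47) and DESeq2 (-0.88). Log2 changes correlated with GC content (Spearman -0.249 over 9381 genes), and with that trend removed 1591 genes were called, 1311 of them among the 1420. Depth limits calls of genes near 3 reads.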
